A study of Mus musculus with 4 samples.

Results

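Mitochondrial ribosomal protein genes are the nuclear genes for the protein subunits of the mitochondrial ribosome, and they were taken here as every protein-coding gene whose mouse symbol begins with Mrpl or Mrps followed by a digit. The rule found 78 genes among the 52636 gene IDs of the series, 49 with an Mrpl and 29 with an Mrps symbol, and it used no expression value. Processed pseudogenes with such a symbol, 5 in all, were left out. RNA was sequenced from regulatory T cells sorted as CD4+CD62L+CD25bright from C57BL/6 mice aged 7 weeks. In the first group, labelled Vav1R63W, the mice carried a knock-in allele of Vav1, which encodes a signalling adaptor of the T cell receptor. In the second, labelled Vav1R63W-Themis1-T-/-, the mice carried the same Vav1 allele and lacked Themis1, another T cell receptor signalling protein, in T cells, so the Vav1 allele is common to both groups. Each group has 2 libraries, numbered 2 and 3 in the labels. Nothing in the labels says that the libraries of a group came from separate animals, nor which Cre line deleted Themis, and the p-values speak only of the spread among these 4 samples, which may be technical.

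The mitochondrial ribosome translates the few mRNAs that the mitochondrial genome encodes, all of them for subunits of the respiratory chain and ATP synthase. Its large subunit forms peptide bonds and its small subunit decodes the mRNA, and it descends from a bacterial ribosome to which animals have added many proteins of their own. The 2 rRNAs are made in the mitochondrion, whereas all protein subunits are made in the cytosol and imported. T cells are known to raise mitochondrial translation when they are activated. In the universal names of the subunits the prefix u or b marks a protein with a bacterial homologue, m a mitochondria-specific protein, and L or S the subunit. By these names 51 of the genes belong to the large subunit, Mrps30 and Mrps18a among them, and 26 to the small subunit. Mrps36 belongs to neither, since its product is known as a component of the 2-oxoglutarate dehydrogenase complex.

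Total reads assigned to genes lay between 13963670 and 15953194 per library. Levels are given as CPM, the reads of a gene per 1000000 reads assigned to genes in its library. Themis, the targeted gene, had 283 and 97 reads in Vav1R63W replicates 2 and 3, 685 in the library labelled Vav1R63W-Themis1-T-/- replicate 2, and 0 in replicate 3 of that label. The reads of the targeted gene go against the label of the former of these libraries. Counts per gene do not show which exons held these reads, so they cannot decide whether the label is wrong. Every direction below is therefore between labels, and the libraries of the second group are called double-mutant-labelled. Results are also given without replicate 2 of that label where this was computed and moves them by over 1.5 times. It was not computed for the medians of the other gene lists, of genes with a promoter match, or of genes with and without a bacterial homologue. Across the 10216 genes tested, log2 CPM of replicate 3 of that label correlated at 0.650 to 0.666 with the other libraries, which correlated at 0.714 to 0.741 among themselves. The doubted library correlated at 0.741 with Vav1R63W replicate 2 and at 0.661 with replicate 3 of its own label. All 8 regulatory T cell markers examined had reads in the series, with a summed level of 4893 to 5138 CPM in the Vav1R63W pair and 4168 to 5281 CPM in the double-mutant-labelled libraries. None of 6 myeloid markers had a read in any library, and 4 of 6 B cell markers had none. The summed B cell markers were at 68.0 to 68.9 CPM and 37.9 to 62.7 CPM in the groups in that order. Of the 4 CD8 T cell markers 2 had no read, and their sum was 37.9 to 39.7 CPM in Vav1R63W and 19.3 to 31.9 CPM in the other group, also without overlap. Of the 4 erythroid markers 2 had no read, and their sum was 0 to 5.64 CPM and 5.37 to 7.65 CPM. The part of these marker genes in the results below was not tested.

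Promoter sequence was available for 69 of the 78 genes as RefSeq windows of 300 bases on GRCm38.p6, from 250 bases before to 50 after the gene start, 75 windows in all. Factors known to act on nuclear genes for mitochondrial proteins include NRF1, the ETS factor GABP and YY1. A match to the NRF1 core (GCGCA, any base, GCGC) on either strand stood in 13 of the 75 windows (17.3%), against 11.2% of the windows of all tested genes and 4.60% of all windows. The ETS core CCGGAAGT stood in 12 windows, against 9.45% and 3.89% of those sets, and the YY1 sequence (AA, any base, ATGGCGGC) in 7 (9.33%, against 2.77% and 0.986%). TATAAA stood in 5 (6.67%, against 6.65% and 13.6%). At least 1 of the NRF1, ETS and YY1 letters was present in 29 of the 75 windows, or 38.7%, against 21.9% of the windows of tested genes. These are matches of letters and were not tested for binding. The stretches of 30 bases around each match in the genes named below are shown because genes at the higher and at the lower end of the genotype comparison both hold them. Each runs 5′ to 3′ on the strand of the gene with the match in capitals.
Mrpl39 (NRF1 core, chr16:84735350-84735379, minus strand): aaggagaggcGCGCATGCGCccccgcgtgg
Mrpl44 (NRF1 core, chr1:79775973-79776002, plus strand): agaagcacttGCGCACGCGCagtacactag
Mrpl30 (NRF1 core, chr1:37890384-37890413, plus strand): tgacgccgctGCGCCTGCGCtgtcttctat
Mrpl32 (NRF1 core, chr13:14613105-14613134, minus strand): tttgacccttGCGCATGCGCaagaggggcc
Mrps9 (NRF1 core, chr1:42851218-42851247, plus strand): tgggaggtctGCGCCTGCGCagtctccagg
Mrpl33 (ETS core, chr5:31613937-31613966, plus strand): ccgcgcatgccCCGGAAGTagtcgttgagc
Mrpl35 (YY1 letters, chr6:71823741-71823770, minus strand): gcaggctgcAAGATGGCGGCttccatcttc
Counted from the gene start that RefSeq gives, the NRF1 match lies 125 bases upstream in Mrpl39, 35 in Mrpl44, 83 in Mrpl30, 87 in Mrpl32 and 5 in Mrps9. GENCODE, from which the gene positions below are taken, starts Mrpl39 and Mrpl32 farther upstream, so that these 2 stretches lie within the gene as GENCODE draws it. Of these, Mrpl39 and Mrpl44 stood higher and Mrpl32 and Mrps9 lower in the double-mutant-labelled libraries, as described below. Among all 13 genes with the NRF1 core, 5 had a positive and 8 a negative fold change, with a median log2 fold change of -0.14.

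As a group, mitochondrial ribosomal protein transcripts made up nearly the same share of the reads in each library. Their summed level was 6658 and 7154 CPM in Vav1R63W replicates 2 and 3, and 6584 and 6877 CPM in double-mutant-labelled replicates 2 and 3. The means were 6906 ± 351 and 6731 ± 207 CPM (SD, n = 2 each), and the groups overlapped. In bulk samples a smaller amount of RNA per cell and fewer cells of a type cannot be told apart. Large subunit genes summed to 4541 and 4819 CPM in the Vav1R63W pair and to 4513 and 4842 CPM in the others, a ratio of group means of 1.000. Small subunit genes summed to 2071 and 2281 CPM in the Vav1R63W pair and 2024 and 1995 CPM in the double-mutant-labelled pair. For the small subunit both double-mutant-labelled libraries were under both from Vav1R63W by library total, with a ratio of group means of 0.923. With the TMM scaling of the main test the small subunit groups overlapped, at 2022 and 2295 against 2005 and 2049 CPM (ratio 0.939), and they overlapped with DESeq2 size factors too.

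Between genotypes, 77 of the 78 genes had reads enough for a test, and none of these passed the edgeR quasi-likelihood test at a Benjamini-Hochberg adjusted p under 0.05 over all 10216 genes tested, of which 0.0% passed. The edgeR adjusted p of the 77 genes ranged from 0.900 to 1.000. At an unadjusted p under 0.05 stood 2 of the 77 (2.60%), Mrpl39 and Mrpl13, against 4.98% of all tested genes. DESeq2 called 0 of the 77, against 1.92% of the 10748 genes it gave an adjusted p (0.791% higher and 1.13% lower in the double-mutant-labelled libraries). It had 2 of the 77 at an unadjusted p under 0.05, against 8.33% of those genes. limma-voom called 0.0% of all genes, and at an unadjusted p under 0.05 it had 1 of the 77, against 4.73%. The authors' deposited table called 1 of the 77, Mrpl39, or 1.30%, against 1.56% of the 7865 genes with an adjusted p in that table (0.737% higher, 0.826% lower).

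Fold changes are log2 values of the double-mutant-labelled libraries minus Vav1R63W. They were positive for 34 and negative for 43 of the 77 genes, a share of 44.2% positive against 50.1% of all tested genes. The median was -0.06, against 0.00 over all tested genes, and the extremes were -0.98 for Mrps9 and 1.08 for Mrpl39. Without double-mutant-labelled replicate 2, whose Themis reads go against its label, edgeR again called 0 of these genes. The median was then -0.03, against a median of all tested genes that had moved to -0.20, and 35 genes were positive. Differences smaller than 0.5 on the log2 scale were seen for 60 genes (77.9%), against 62.0% of the 5866 tested genes with a mean level of 20 CPM or more. That set has no upper limit, whereas the mitochondrial ribosomal protein genes tested had mean levels of 23.6 to 271 CPM. Large subunit genes had a median of -0.01 (24 positive, 26 negative) and small subunit genes a median of -0.17 (10 positive, 16 negative). Without the library labelled Vav1R63W-Themis1-T-/- replicate 3 the small subunit median was -0.06, and without replicate 2 of that label it was -0.25. Of the genes with a bacterial homologue 20 were positive and 26 negative (median -0.03), and of the mitochondria-specific genes 14 and 16 (median -0.10).

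The 2 libraries of each group did not overlap with those of the other for 30 of the 77 genes (39.0%), against 33.8% of all tested genes and 34.0% of those with a mean of 20 CPM or more. Of these 30, 13 stood higher in the double-mutant-labelled libraries (16.9%, against 15.1% of all tested genes) and 17 lower (22.1%, against 18.7%). At a mean of 20 CPM or more the shares were 15.8% and 18.2%. Among the 46 tested genes with a bacterial homologue 7 stood higher and 16 lower. Among the 30 mitochondria-specific genes tested 6 stood higher and 1, Mrpl52, lower. The median log2 fold changes of these classes were ordered the other way, at -0.03 and -0.10, and the difference between the classes was not tested. With TMM scaling 27 of the 30 genes without overlap still did not overlap, and Mrpl4, Mrpl10 and Mrpl14 did. With DESeq2 size factors these genes and Mrps28 overlapped. All of them are genes with a bacterial homologue that stood lower by library total.

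**Figure D1:**
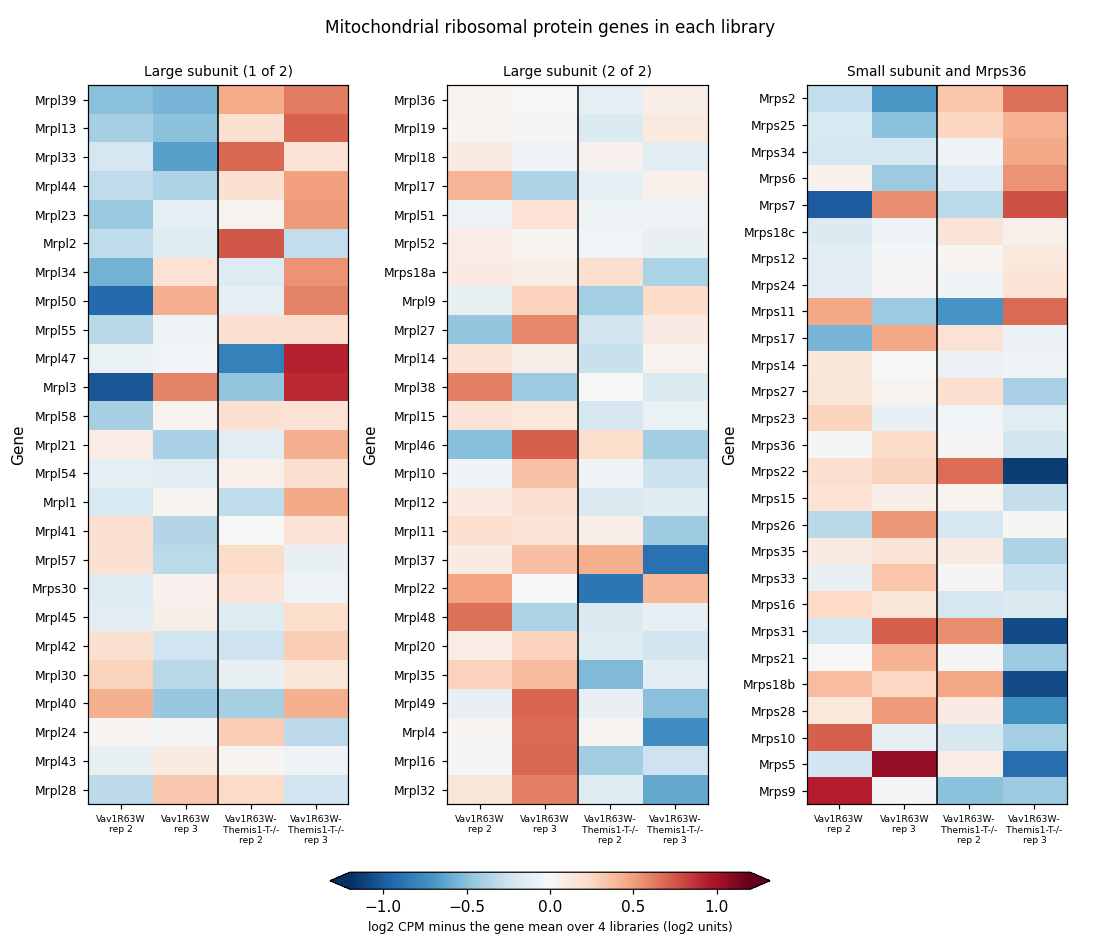
Level of the 77 tested mitochondrial ribosomal protein genes in each of the 4 libraries (columns), as log2 CPM minus the gene's mean over the libraries, with genes (rows) ordered by log2 fold change within large subunit, and within small subunit and Mrps36. Red is above and blue below the gene's mean, and the colours of the 2 libraries of a group often differ within a row, as for Mrpl3, Mrps7 and Mrps22.

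Of the large subunit genes higher in the double-mutant-labelled libraries, Mrpl39 (ENSMUSG00000022889, GRCm38 chromosome 16, 84717576 to 84735742, minus strand) had the smallest p. It encodes mL39, a mitochondria-specific protein. Its level was 64.5 and 62.1 CPM in Vav1R63W replicates 2 and 3, and 124 and 139 CPM in double-mutant-labelled replicates 2 and 3. The replicates of each group lay close together and the groups were far apart, at 63.3 ± 1.69 and 131 ± 10.9 CPM (SD, n = 2 each). Its log2 fold change came to 1.08 ± 0.29 (SE, edgeR adjusted p = 0.900). In the authors' deposited table its log2 fold change was 0.96 with an adjusted p of 0.00861. DESeq2 on the same counts gave an adjusted p of 0.247, and over all alternatives the adjusted p ranged from 0.247 to 1.000.

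Mrpl13 (chromosome 15, 55534094 to 55557748, minus strand) encodes uL13m, a protein with a bacterial homologue. It was at 76.5 and 71.4 CPM in the Vav1R63W pair and at 114 and 165 CPM in the double-mutant-labelled pair. The groups did not overlap, and the latter pair spread more widely. This gave a log2 fold change of 0.94 ± 0.32 (SE, edgeR adjusted p = 0.958), and its adjusted p in the authors' deposited table was 0.125. Mrpl23, whose product uL23m lies at the exit of the peptide tunnel, was the gene of the large subunit with the highest CPM. It was at 137 and 173 CPM against 192 and 266 CPM without overlap, a log2 fold change of 0.59 ± 0.29. Reads of Mrpl23 could be shared with its processed pseudogene Mrpl23-ps1, which had 92 to 159 reads per library.

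Mrpl44 encodes mL44, which has an RNase III-like fold, and was at 51.3 and 49.1 CPM against 71.9 and 89.2 CPM (log2 0.71 ± 0.38). Mrpl33, encoding bL33m, was at 34.3 and 25.1 CPM against 63.2 and 44.0 CPM (log2 0.88 ± 0.55). Neither gene's groups overlapped, and the edgeR adjusted p was 1.000 for Mrpl23, Mrpl44 and Mrpl33.

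In the lower direction stood Mrpl32, whose product bL32m is matured by the m-AAA protease before it joins the ribosome. Mrpl32 (chromosome 13, 14608184 to 14613165, minus strand) was at 123 and 169 CPM in the Vav1R63W pair and 100.2 and 72.3 CPM in the double-mutant-labelled pair. Its groups did not overlap, although the replicates of each group lay farther apart than the nearest libraries of the 2 groups, and the log2 fold change was -0.74 ± 0.33. Mrpl35, encoding bL35m, was at 96.5 and 104 CPM against 55.1 and 73.2 CPM (log2 -0.62 ± 0.35). Mrpl16, encoding uL16m, was at 61.7 and 101 CPM against 46.8 and 52.7 CPM (log2 -0.69 ± 0.45). Mrpl4, encoding the tunnel protein uL4m, was at 151 and 236 CPM against 151 and 88.4 CPM (log2 -0.68 ± 0.40), so that the replicate 2 libraries of both labels were nearly equal. The edgeR adjusted p of these 4 genes was 1.000 each. Without double-mutant-labelled replicate 2 the log2 fold change was -1.09 for Mrpl4 and -0.41 for Mrpl35. Without Vav1R63W replicate 3 it was -0.30 for Mrpl4, -0.26 for Mrpl16 and -0.46 for Mrpl32. Without double-mutant-labelled replicate 3 it was -0.37 for Mrpl4, and, of the genes in the higher direction, 0.62 for Mrpl13 and 0.30 for Mrpl23.

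The other genes of the large subunit with the highest CPM were Mrpl15 and Mrpl30. Mrpl15, encoding uL15m, was at 199 and 196 CPM against 155 and 169 CPM, with close replicates and a log2 fold change of -0.26 ± 0.20. Mrpl30, encoding uL30m, was at 217 and 143 CPM against 169 and 199 CPM, and its groups overlapped (log2 0.07 ± 0.29, and 0.20 without double-mutant-labelled replicate 2). Mrpl10, Mrpl11 and Mrpl12 form the stalk that binds translation factors, and they were singled out after their values were seen. Mrpl12 was at 39.1 and 41.3 CPM against 31.8 and 32.4 CPM, Mrpl11 at 61.3 and 59.4 CPM against 56.3 and 39.8 CPM, and Mrpl10 at 77.8 and 102 CPM against 77.7 and 66.9 CPM. All 3 were lower in both double-mutant-labelled libraries by library total, and Mrpl10 overlapped after TMM scaling. With each library left out in turn, the log2 fold change ran from -0.50 to -0.061 for Mrpl10, from -0.55 to -0.10 for Mrpl11 and from -0.37 to -0.23 for Mrpl12. Mrpl10 and Mrpl12 are also among the genes that lose many reads to exons shared with a neighbour, as described below.

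Among small subunit genes, Mrps2 (chromosome 2, 28468066 to 28471178, plus strand), which encodes uS2m, was the gene with the smallest p in the higher direction. Its level was 36.4 and 27.6 CPM in the Vav1R63W pair and 56.4 and 70.6 CPM in the double-mutant-labelled pair. The groups did not overlap, with a log2 fold change of 1.02 ± 0.49 (SE, edgeR adjusted p = 1.000). Mrps9 (chromosome 1, 42851233 to 42905683, plus strand), encoding uS9m, had the most negative fold change. It was at 105 and 53.9 CPM in Vav1R63W replicates 2 and 3 and at 38.7 and 40.2 CPM in the others, so that Vav1R63W replicate 2 stood apart from the remaining libraries. Its log2 fold change was -0.98 ± 0.50 (edgeR adjusted p = 1.000), and it ranged from -1.36 to -0.45 when each library was left out in turn.

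Mrps16, encoding bS16m, was at 192 and 181 CPM against 142 and 144 CPM, with close replicates in both groups and a log2 fold change of -0.36 ± 0.21. Mrps14, encoding uS14m, had the highest CPM of all 78 genes, at 297 and 271 CPM against 257 and 261 CPM (log2 -0.10 ± 0.16). Mrps24, encoding uS3m, was at 149 and 164 CPM against 157 and 182 CPM (log2 0.14 ± 0.23, and 0.26 without double-mutant-labelled replicate 2), and its groups overlapped. None of these 3 genes passed the test (edgeR adjusted p = 1.000 each).

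**Figure D2:**
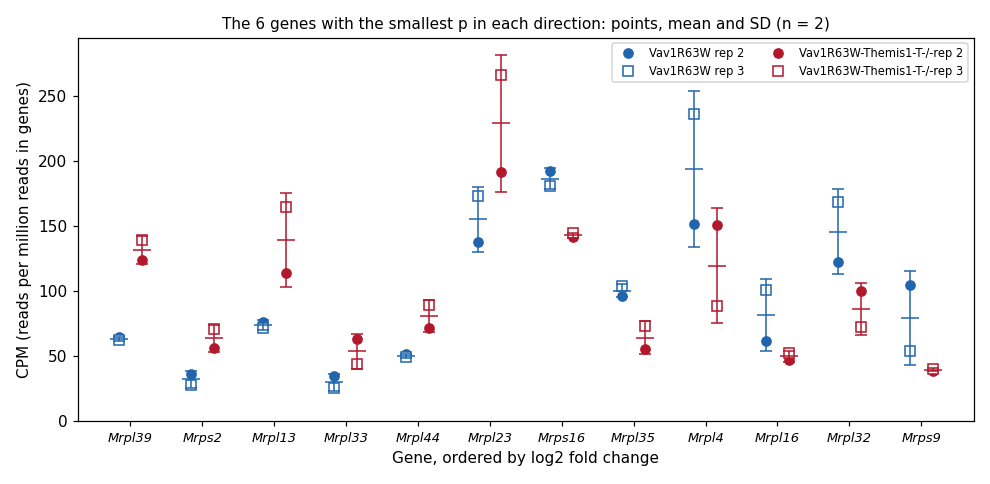
CPM in each library for the 6 genes with the smallest edgeR p in each direction, with Vav1R63W in blue and the libraries labelled Vav1R63W-Themis1-T-/- in red (filled circles are replicate 2, open squares replicate 3, bars the mean and SD of 2 libraries). The replicates of Mrpl39 and Mrps16 lie close together in both groups, whereas those of Mrpl4 lie 151 and 236 CPM in Vav1R63W and 151 and 88.4 CPM in the other group.

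Folds between replicates and between genotypes had similar medians, but they are unlike measures. The genotype fold compares means of 2 libraries, which spread less than the single libraries that the replicate fold compares. The fold between group means, taken in either direction, had a median of 1.23 over the 77 genes, and it was above 2 for Mrpl39 and Mrps9 only. The fold between the replicates of a group had a median of 1.26 in Vav1R63W and 1.25 in the double-mutant-labelled libraries, against 1.35 and 1.46 for the tested genes with a mean level of 20 CPM or more that had reads in both libraries. Replicates differed by more than 2-fold for 9 of the 77 genes in Vav1R63W (11.7%, against 21.2% of those genes) and for 10 in the double-mutant-labelled libraries (13.0%, against 28.8%). In 19 of the 77 genes the fold between group means was larger than the replicate fold in each group. This is a larger share than the 19.8% of the genes with a mean of 20 CPM or more, and the difference was not tested.

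The widest spreads were within groups. Mrpl3, encoding uL3m, was at 36.6 and 112 CPM in Vav1R63W replicates 2 and 3 and at 53.9 and 138 CPM in double-mutant-labelled replicates 2 and 3. Mrps7, encoding uS7m, was at 40.7 and 119 CPM, and at 65.0 and 137 CPM. In both genes the replicate 3 libraries of the 2 labels were high and the replicate 2 libraries low. Mrps22, encoding mS22, was at 33.3 and 34.8 CPM in Vav1R63W and at 45.9 and 13.2 CPM in the others, and Mrps31, encoding mS31, at 20.6 and 39.2 CPM, and at 35.2 and 11.3 CPM. Mrps5, encoding uS5m, was at 38.1 and 92.0 CPM, and at 47.5 and 23.8 CPM. For Mrps22, Mrps31, Mrps5 and Mrps18b the lowest of the 4 libraries was the one labelled Vav1R63W-Themis1-T-/- replicate 3, which was the lowest for 12 of the 26 small subunit genes and 11 of the 50 tested large subunit genes. The genes with over 2-fold between replicates in either group, 17 in all, had a median level of 58.0 CPM, against 82.1 CPM for the others.

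The narrowest spreads over the 4 libraries belonged to Mrpl52, Mrpl36 and Mrpl43, whose highest and lowest libraries differed 1.14-fold, 1.14-fold and 1.15-fold. Mrpl36, encoding bL36m, was at 150 and 146 CPM in Vav1R63W and at 135 and 154 CPM in the double-mutant-labelled libraries. The 4 libraries lay within 1.2-fold for 7 genes, these 3 with Mrps14, Mrps12, Mrpl18 and Mrpl51.

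**Figure D3:**
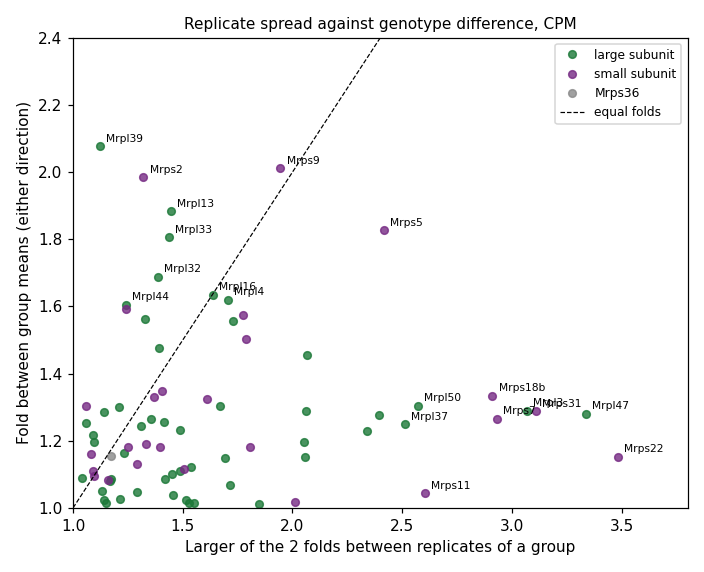
Fold between group means (vertical axis, either direction) against the larger of the 2 folds between replicates (horizontal axis) for each of the 77 genes, from CPM, with large subunit genes in green, small subunit genes in purple and Mrps36 in grey. Genes above the dashed line, 19 in all, differ more between groups than within either, and Mrpl39 lies farthest above it, while Mrps22, Mrpl47, Mrps31 and Mrpl3 lie far to the right.

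Most protein subunits of a ribosome are assembled in equal number, but the transcripts of these genes were not counted at equal levels. Per kilobase of median coding transcript length, the mean level over the 4 libraries had a median of 70.8 CPM per kb, with quartiles of 38.1 and 109. It ran from 7.66 CPM per kb for Mrpl47 to 346 CPM per kb for Mrpl52. These levels leave out reads in exons shared with a neighbour, as described below. For 5 genes, Mrpl47 among them, over 50% of the reads in the strand columns are missing from the counts used here. The low level of Mrpl47 may therefore lie in the counting. After Mrpl52 came Mrps21 (285 CPM per kb), Mrpl23 (278), Mrpl30 (275) and Mrpl42 (248). The median was 75.2 CPM per kb for large and 48.9 for small subunit genes. This order depends on the length used, since 5 of the 10 highest genes stay among the 10 highest with the merged length of all exons.

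Some of these genes share exons with a neighbour. The library kit does not mark strand, and a read in exons shared by 2 genes counts for neither in the unstranded column. Exons of 33 of the 78 genes overlap another annotated gene, a protein-coding one in 23. The sum of the 2 strand columns, in which reads of genes on opposite strands are both kept, held far more reads than the unstranded column for some genes. Reads absent from the unstranded column were 83.5% of this sum for Mrps34, 81.9% for Mrpl47, 69.2% for Mrpl12, 56.3% for Mrps18b and 52.0% for Mrpl24. They were above 20% for 13 genes and below 1% for 54. Mrps34, whose exons share 763 bases with Nme3 on the same strand and 1309 bases with Mapk8ip3 on the other, had 282, 288, 359 and 442 reads in the unstranded column, in the order Vav1R63W replicates 2 and 3 and the others, and 1581, 1939, 2151 and 2630 in the strand sum. The gene of origin of the added reads cannot be told apart. Mrpl53 (chromosome 6, 83109040 to 83109939, plus strand) had 0 reads in all 4 libraries and in every count column, and 695 of the 790 bases of its exons are shared with Gm42688 on the same strand. Gm42688 itself had 8 and 2 reads in Vav1R63W and 0 in the others. A count of 0 allows up to 3 reads per library, and this covers counting error only.

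**Figure D4:**
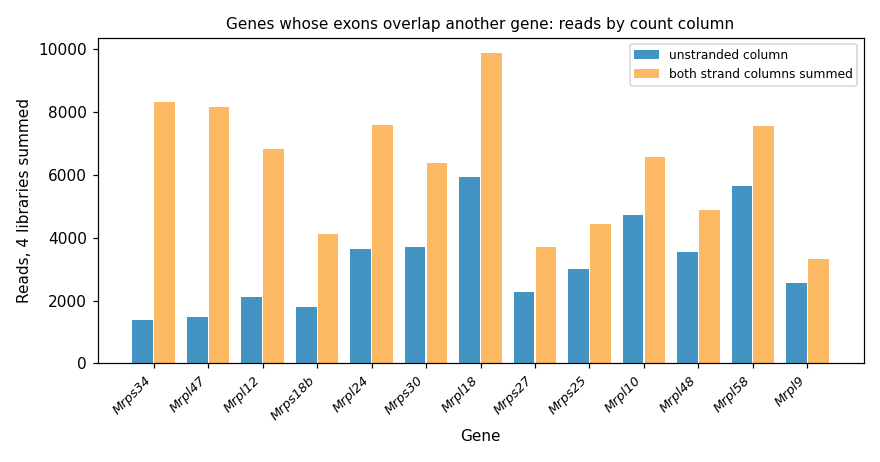
Reads of the 13 genes for which over 20% of the strand-column reads are missing from the unstranded column, summed over the 4 libraries (vertical axis starts at 0), in the unstranded column (blue) and in both strand columns together (orange). Mrps34 and Mrpl47 have the shortest blue bars, with 83.5% and 81.9% of the strand-column reads not counted.

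Mrpl46 and Mrps11 lie head to head on chromosome 7 and share 173 exonic bases. They were picked after their values were seen. Mrpl46, encoding mL46, was at 45.1 and 105 CPM in Vav1R63W and at 74.4 and 47.9 CPM in the double-mutant-labelled libraries. Mrps11, encoding uS11m, was at 69.5 and 37.2 CPM, and at 30.9 and 80.4 CPM. The 2 libraries with more Mrpl46 than Mrps11 were Vav1R63W replicate 3 and double-mutant-labelled replicate 2. The order was turned in the remaining pair, and the sum of both genes was 115, 143, 105 and 128 CPM.

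The genes lie on 17 chromosomes, with 11 on chromosome 11 (14.1%, against 7.48% of protein-coding genes), 8 on chromosome 17 and 0 on the X chromosome.

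Other genes of mitochondrial translation were examined by lists, and none of their members passed the edgeR test, adjusted over all genes tested. The medians of these lists were not computed without double-mutant-labelled replicate 2, so how far they rest on that library is not known. Mitoribosome proteins with other symbols, and the insertase Oxa1l, had 2 positive and 4 negative fold changes (median -0.10). Dap3, encoding mS29, was at 146 and 209 CPM in Vav1R63W and at 140 and 147 CPM in the double-mutant-labelled libraries, and its groups overlapped. Chchd1, encoding mS37, was at 124 and 103 CPM against 135 and 116 CPM, also overlapping (log2 0.17 ± 0.26, and 0.08 without double-mutant-labelled replicate 2). The mitochondrial rRNAs, which form the core of the ribosome, both had positive fold changes. mt-Rnr1, the small subunit rRNA, was at 357 and 462 CPM against 551 and 576 CPM, with groups that did not overlap (log2 0.48 ± 0.19, edgeR adjusted p = 1.000). mt-Rnr2, the large subunit rRNA, was at 4625 and 5539 CPM against 5318 and 6049 CPM, with overlap (log2 0.19 ± 0.15, and 0.29 without double-mutant-labelled replicate 2).

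Mitochondrial translation factors had 4 positive and 9 negative fold changes among 13 tested genes, with a median of -0.39, against 0.00 for all tested genes. Mrrf, the ribosome recycling factor, was at 29.8 and 47.5 CPM in Vav1R63W and 13.0 and 10.8 CPM in the double-mutant-labelled libraries (log2 -1.68 ± 0.79, edgeR adjusted p = 1.000). Tmem70, listed with these factors although known for ATP synthase assembly, was at 45.5 and 35.6 CPM against 62.7 and 83.2 CPM (log2 0.88 ± 0.44). Neither gene's groups overlapped.

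Ribosome assembly genes had 14 positive and 12 negative fold changes (median 0.19). Ybey, a predicted endoribonuclease of rRNA maturation, had 0 reads in both Vav1R63W libraries and 203 and 583 in the double-mutant-labelled pair, at least 129-fold higher against a floor of 3 reads per library. The bound was 198-fold without double-mutant-labelled replicate 2 and 60.2-fold without replicate 3. Such bounds, here and below, cover counting error only and leave out the spread between libraries of a group. In the lists examined, Hars2 had 806 and 2 reads in Vav1R63W replicates 2 and 3. Guf1 had 475 and 1 reads in double-mutant-labelled replicates 2 and 3. In the strand columns together, which keep reads in exons shared with a gene on the other strand, Ybey had 36 and 11 reads in Vav1R63W against 216 and 780, so the 0 in the unstranded column holds for that way of counting only. It did not pass the edgeR test (adjusted p = 0.900), was called by DESeq2 (adjusted p = 3.12e-05) and had an adjusted p of 0.0676 in the authors' deposited table. Over all alternatives its adjusted p ranged from 3.12e-05 to 1.000. Nsun4, an rRNA methyltransferase, was at 39.5 and 19.7 CPM against 42.9 and 70.6 CPM (log2 0.98 ± 0.65).

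Mitochondrial aminoacyl-tRNA synthetase genes had 9 positive and 13 negative fold changes (median -0.04). The list also held Hars, known as the cytosolic histidyl-tRNA synthetase, without which 9 were positive and 12 negative with the same median. Tars2, which charges threonyl-tRNA, was at 101 and 121 CPM against 83.4 and 42.2 CPM (log2 -0.81 ± 0.45, and -1.36 without double-mutant-labelled replicate 2). Qrsl1, of the mitochondrial glutaminyl-tRNA amidotransferase, had 78 and 15 reads in Vav1R63W and none in the double-mutant-labelled pair (0 reads each), a level at least 16.4-fold lower by that floor, and at least 5.17-fold lower without Vav1R63W replicate 2. Aars2, the alanyl-tRNA synthetase, was named after its values were seen. Too few of its libraries had enough reads for the count filter of the edgeR test, but it was called by DESeq2 (adjusted p = 0.0252). It had 0 reads in both Vav1R63W libraries and 609 and 3 reads in double-mutant-labelled replicates 2 and 3, so its difference rests on the library whose label is in doubt. Genes of mitochondrial transcription and RNA stability had 7 positive and 6 negative fold changes (median 0.01). Tfam, which packages mitochondrial DNA and activates its transcription, was at 151 and 104 CPM against 101 and 76.6 CPM (log2 -0.50 ± 0.33). Polrmt, the mitochondrial RNA polymerase, was at 10.9 and 0.486 CPM against 28.7 and 22.2 CPM, and the Vav1R63W libraries differed by a larger fold than the group means (log2 2.21 ± 1.75, and 5.68 without Vav1R63W replicate 2).

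Nuclear regulators of mitochondrial genes had 6 positive and 5 negative fold changes (median 0.15). Ppargc1b, a coactivator of mitochondrial biogenesis, had 88 and 104 reads in Vav1R63W and 0 in each double-mutant-labelled library. By that floor, which covers counting error only, its level was at least 33.5-fold lower. Its edgeR adjusted p was 0.900 and its DESeq2 adjusted p 0.137. Rela, the NF-kB subunit that this list also held, had a log2 fold change of -0.50 ± 0.19 (edgeR adjusted p = 1.000). Setting Ybey, Qrsl1 and Ppargc1b at their bounds could not move these list medians, since each keeps its sign and stays far from the median. Aars2 and Mterf1b, which also had 0 reads in a group, had no edgeR fold change and are not in the medians.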

How the data were processed

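Per the submitters' processing notes, STAR aligned the reads after Trim Galore and FastQC (versions not given in the sources used here). Ensembl release 90 is named in the design text but mm9 in the processing notes. The authors deposited raw read counts per gene, without strand and per strand, and a table with the same unstranded counts, counts divided by DESeq2 size factors and rounded (a score here, not used), a fold change as a linear ratio (not used), log2 fold changes, p-values and adjusted p-values of DESeq2 through SARTools, per the file headers and the design text. The summary lines of unassigned reads, 21.1% to 23.1% of each library, were left out. The unstranded counts equal those of the series table for all 52636 IDs. GENCODE M21 (GRCm38) gave symbols for 52489 IDs, biotypes, positions and lengths.

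Under R 4.3.3, edgeR 4.0.16 tested the counts with TMM, default filterByExpr (a minimum count of 10 and total of 15) and the robust quasi-likelihood test, two-sided, without a block, and p adjusted over all genes. Standard errors were taken from each fold change and its F statistic. Levels are CPM by library total. Alternatives were DESeq2 1.42.0, limma-voom (limma 3.58.1), DESeq2 size factors, library totals, no filter, a replicate block, the strand column with more reads and leaving out each library. Fits were tested on simulated data.

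Named mitochondrial ribosomal protein genes are those with an adjusted p under 0.05 with edgeR, with DESeq2 or in the authors' table, the 6 with the smallest p in each direction, the 3 with the highest CPM among Mrpl and among Mrps symbols, any with under 1 and over 10 CPM, which found none, and, of each other list, the 2 tested genes with the smallest edgeR p. Others are said to be picked after their values were seen or are named only to describe spread, overlap or length. The members, lists and rules were chosen with earlier results of these data known. Among 7 lists of other genes, the symbol Mtrfr was not matched.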

Additional observations from a re-analysis of the deposited data

Results flagged for a closer look

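Reads also fell on processed pseudogenes with an Mrpl or Mrps symbol, which the comparisons leave out, above the 3 reads that a count of 0 allows. Mrpl23-ps1 had 102, 92, 114 and 159 reads, with Vav1R63W replicates 2 and 3 given before the same numbers of the Vav1R63W-Themis1-T-/- label. Mrps36-ps1 had 6, 5, 5 and 5 reads in the same order, and Mrpl48-ps had 4 in Vav1R63W replicate 2 and 4 in the library labelled Vav1R63W-Themis1-T-/- replicate 3. Whether these reads came from the parent genes was not tested.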

How the results depend on the processing

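The count of mitochondrial ribosomal protein genes called was 0 under all 11 alternatives. Over all genes the count was 0 under 10 of them and 206 with DESeq2, and the cause was not tested. The alternatives kept the median log2 fold change of these genes between -0.10 and -0.03 and the number positive between 29 and 37, both extremes with a library left out. Alternatives for the subunits, the sums, the bounds and for overlap were chosen after seeing the data. Leaving out each library in turn moved the large subunit median from -0.12 to 0.019 and the small subunit median from -0.25 to -0.058. Groups did not overlap for 30 genes by library total, 27 with TMM, 26 with DESeq2 size factors and 30 in the strand column, 26 of the latter shared. Of the 31 named genes with Themis, 27 kept their sign throughout. The others were Dap3 (-0.54 to 0.019 over left-out libraries), Mrpl30 (-0.18 to 0.37), Mrps24 (-0.0023 to 0.26) and Themis (-10.55 to 1.68, with -10.55 without the library labelled Vav1R63W-Themis1-T-/- replicate 2, -3.05 with limma-voom and -2.93 with the replicate block). Of all 77 genes, 37 kept their sign in all 4 fits with a library left out. A lone library in a group is assumed there to vary like the others. The labels do not pair the samples, and deviations of same-numbered libraries correlated at 0.02, so the block is only an alternative: it called 0 genes, with a median of -0.05. The tested genes had a median of 1090 reads per gene and library, with 158 as the fewest, for Mrps31.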
